A study of Mus musculus with 12 samples.

Results

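Mitochondrial complexes III, IV and V, with their mobile carrier cytochrome c, were represented by 45 of the 23282 gene rows counted in mouse splenic B cells. The members were all rows whose symbol begins with Uqcr, with Cox4 to Cox8 or with Atp5, plus Cyc1 and Cycs. The rule reads symbols only, but it was chosen with earlier results of these data known. Complex III had 9 members, complex IV 18, complex V 17, and Cycs stood alone. Of the 45, 41 passed the filter on low counts, and the 4 that did not were the tissue isoforms Cox4i2, Cox7b2, Cox8b and Cox8c, with 5, 0, 3 and 1 counts over all 12 libraries. Atp5s (factor B) and Atp5sl (Dmac2 in the GENCODE annotation) carry the prefix without being ATP synthase subunits. Both are counted among the 17 of complex V, also in its sums, medians and shares of members called. Their own values are named separately below, and neither was called in ODN against control.

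Complex III, the cytochrome bc1 complex, passes electrons from ubiquinol to cytochrome c, and complex IV, cytochrome c oxidase, passes them from cytochrome c to oxygen. Both build the proton gradient that complex V, the ATP synthase, spends to make ATP. All members are nuclear genes, whereas the catalytic core of complex IV and cytochrome b of complex III are encoded by mitochondrial DNA, so each complex needs products of both genomes. Lymphocytes that leave the resting state are known to enlarge their mitochondrial respiration.

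There were 4 groups of 3 libraries, all from wild-type C57BL/6 mice aged 7 weeks by the sample labels, though the series description calls the mice lupus-prone. ODN+IM156 mice received both agents, ODN mice a class B CpG-ODN 1826, IM156 mice the oxidative phosphorylation inhibitor IM156, and control mice no treatment. The ODN, a synthetic DNA that activates the receptor TLR9, was given at 50 µg on days 1 and 3, and IM156 on days 0 and 2 at a dose of 30 mg per kg. All injections were intraperitoneal and spleens were taken on day 4. The labels name no vehicle, sex, batch or number of animals per library, so p-values measure the spread between these libraries only.

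Libraries were made with a 3′ tag kit, which reads the end of each transcript, and held 9650775 to 11532525 counts. Levels are in CPM, counts-per-million units of the scaled library. The B-cell label was checked on Cd79a, a signalling chain of the B-cell receptor, which averaged 658 ± 35.4, 636 ± 14.4, 660 ± 18.4 and 660 ± 73.1 CPM in ODN+IM156, ODN, IM156 and control libraries (SD, n = 3 each). The T-cell gene Cd3e averaged at most 0.185 CPM in any group, but a list of 10 T-cell genes summed to 24.77 to 45.73 CPM per library. Neutrophil and NK cell lists averaged 46.98 and 23.14 CPM in ODN libraries, against 7.809 and 5.271 CPM in control libraries. Erythroid genes, given below, went the other way. The libraries were thus not free of transcripts of other cells. For Xist, an RNA made from an inactivated X chromosome, a single count (1) was found in ODN replicate 3, while the remaining 11 libraries had 923.9 to 1320 CPM. ODN replicate 2 held 1.46% of its counts in the ribosomal RNA row Rn45s, against 4.78% to 9.63% elsewhere. Some values that rest on these 2 libraries are also given without each. They are the sums and medians of the complexes, the range over all members called in ODN against control, and the totals of members called by edgeR. Other values, such as calls per complex, DESeq2 counts, other gene lists and single genes, include both libraries unless stated. In whole-sample RNA, fewer cells of a type and less RNA per cell cannot be told apart.

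Summed over its members, complex III reached 1231 ± 39.8 CPM in ODN+IM156, 1527 ± 154 CPM in ODN, 1255 ± 105 CPM in IM156 and 1149 ± 85.3 CPM in control libraries (SD, n = 3 each). Complex IV reached 2139 ± 50.8, 2596 ± 268, 2090 ± 121 and 1945 ± 156 CPM in the same order of groups. Complex V reached 2863 ± 9.87, 3302 ± 272, 2801 ± 100 and 2700 ± 92.3 CPM. The ODN means were thus 132.9%, 133.4% and 122.3% of the control means for complexes III, IV and V, and the ODN+IM156 means 107.1%, 110% and 106%. Every ODN library lay above every control library in all 3 sums. Within the ODN group replicate 3 was the lowest in each, at 1371, 2295 and 2992 CPM against at least 1531, 2684 and 3412 CPM in replicates 1 and 2. Without replicate 3 the ODN means were 139.7%, 141.1% and 128% of the control means for complexes III, IV and V, and without replicate 2 they were 126.3%, 128% and 120.3%.

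**Figure D1:**
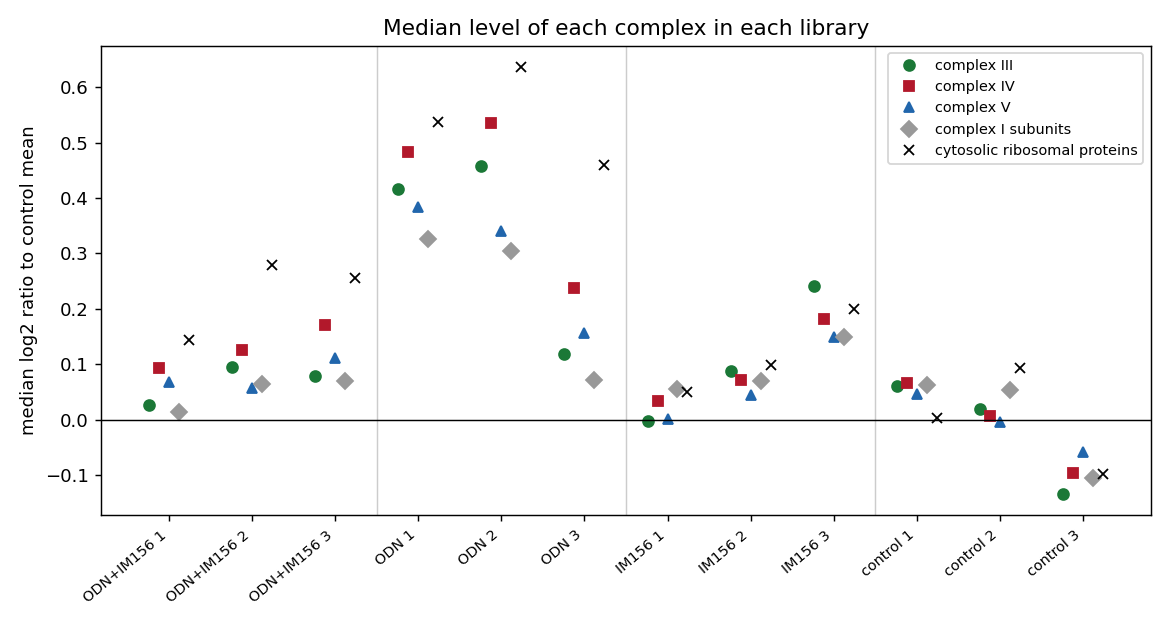
Median log2 ratio to the control mean over the tested members of complexes III, IV and V, with complex I subunits and cytosolic ribosomal proteins for comparison, in each of the 12 libraries (x axis, by group; y axis, log2 ratio). ODN replicates 1 and 2 stand highest, at 0.48 and 0.54 for complex IV, and ODN replicate 3, at 0.24, lies nearer to IM156 replicate 3, at 0.18.

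The first comparison, ODN against control, asks what the ODN did to these transcripts. In it 22 of the 41 tested members rose and none fell (edgeR's quasi-likelihood test, adjusted p below 0.05 over all 11857 genes tested), where 7.34% of all tested genes rose and 3.25% fell. The risers made up 4 of 9 tested members of complex III, 10 of 14 of complex IV and 8 of 17 of complex V. The median log2 fold change was 0.33 for complex III, 0.42 for complex IV and 0.25 for complex V, against -0.0049 over all genes tested. These medians were 0.43, 0.50 and 0.31 without ODN replicate 3, and 0.29, 0.35 and 0.28 without ODN replicate 2. Those of complex V take in Atp5s (-0.05) and Atp5sl (-0.24), which are not subunits. Over its other tested members, with all libraries, complex V had the median of Atp5o, 0.39, above that of complex III. Without overlap between the groups, 26 members were higher in every ODN library than in any control library, where 13.2% of all tested genes were. One member, Cox6b2, lay without overlap in the other direction, where 11.3% of genes did.

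Complex III is built on a pair of core proteins that face the matrix, Uqcrc1 and Uqcrc2, on the redox carriers cytochrome c1 (Cyc1) and the Rieske iron-sulfur protein (Uqcrfs1), and on small subunits around them. Neither core protein passed the test, 1 of the 2 redox subunits rose (Uqcrfs1), and 3 of the 5 small subunits rose (Uqcrh, Uqcr10 and Uqcrb). Uqcrh, the hinge protein that helps cytochrome c dock, gave 461, 533 and 491 CPM in ODN+IM156, 669, 742 and 608 CPM in ODN, 449, 494 and 544 CPM in IM156 and 440, 478 and 396 CPM in control libraries. The 3 ODN libraries were the highest of all 12. Its log2 fold change, ODN against control, was 0.62 ± 0.10 (SE, adjusted p = 0.00065), the largest among called members.

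Uqcrfs1, which carries the iron-sulfur cluster that takes electrons from ubiquinol, gave 101, 102 and 80.8 CPM in ODN libraries, against 72.3, 61.6 and 60.3 CPM in control libraries. The groups did not overlap, and the log2 fold change was 0.55 ± 0.11 (SE, adjusted p = 0.00215). Uqcrb, a small subunit near a ubiquinone site, gave 113, 117 and 105 CPM in ODN libraries, against 80.6, 85.9 and 87.9 CPM in control libraries, a log2 fold change of 0.40 ± 0.09 (SE, adjusted p = 0.00569). Uqcr10 reached 131, 149 and 112 CPM in ODN libraries, against 93.7, 107 and 84.3 CPM in control libraries (adjusted p = 0.0115).

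The other redox subunit and the core protein Uqcrc1 were not called. Cyc1 gave 50.0, 50.1 and 54.7 CPM in ODN libraries, against 57.5, 49.6 and 44.0 CPM in control libraries, and the groups overlapped (log2 fold change 0.04 ± 0.12, adjusted p = 0.887). Uqcrc1 gave 61.7, 51.6 and 50.9 CPM in ODN libraries, against 56.0, 57.6 and 51.3 CPM in control libraries (log2 fold change -0.01 ± 0.11, adjusted p = 0.978), the largest p in the complex. Uqcrc2 and Uqcrq stood at log2 fold changes of 0.22 and 0.11 without a call, and Uqcr11 at 0.33 (adjusted p = 0.121). Uqcrc2 shares its 3′ end with Pdzd9 on the opposite strand, and since the strand rule of the counting is not given in the sources used here, reads there cannot be told apart.

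**Figure D2:**
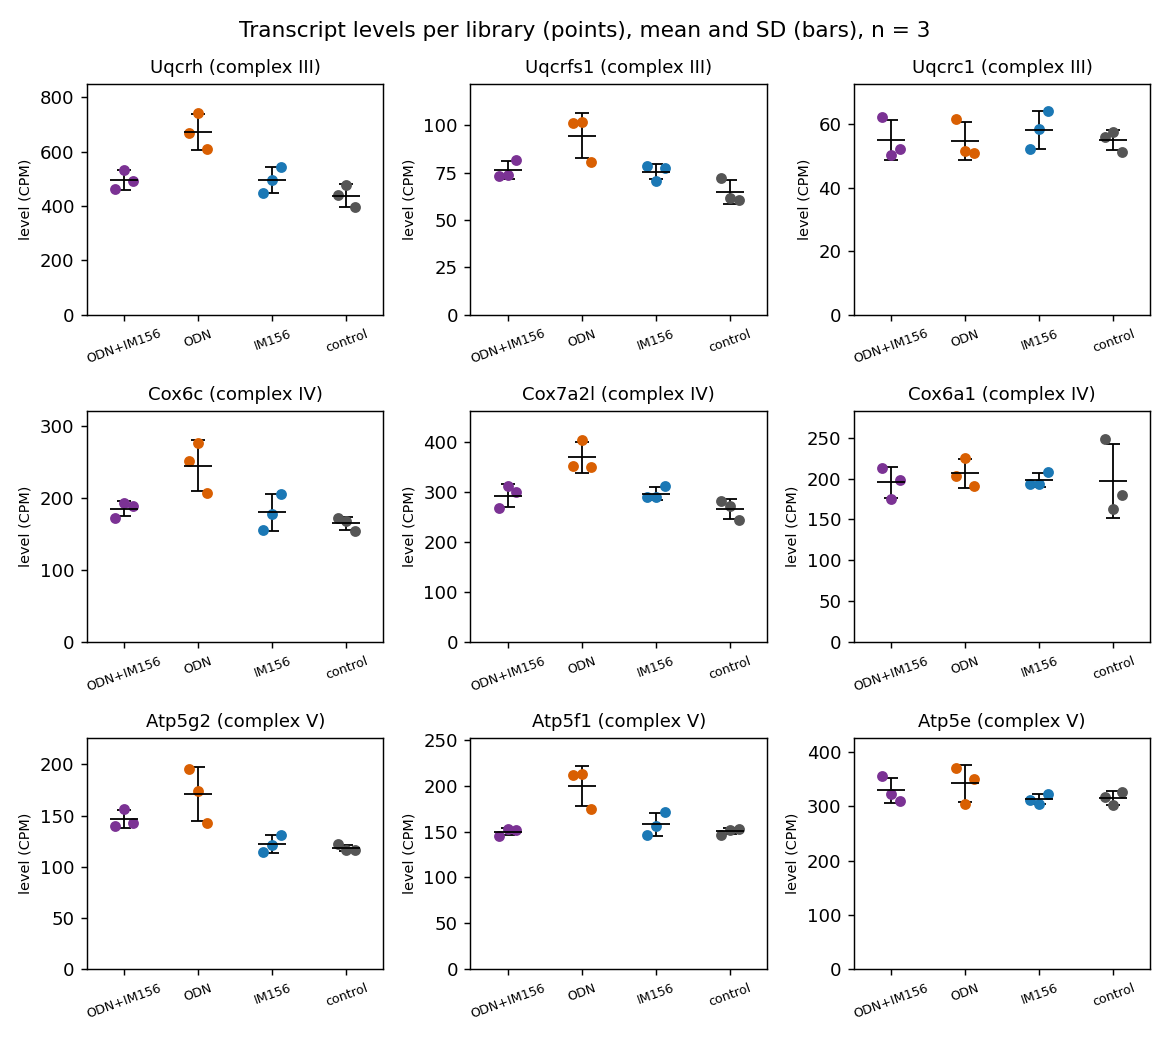
Levels in CPM (y axes, from 0) of 9 members, 3 per complex, in ODN+IM156, ODN, IM156 and control libraries (x axes); points are libraries, bars the mean and SD of 3. Uqcrh, Cox7a2l and Atp5f1 are highest in the 3 ODN libraries, whereas Uqcrc1, Cox6a1 and Atp5e overlap between ODN and control.

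In complex IV, 9 of the 10 subunit genes used in most tissues rose. Cox7a2l, a Cox7a relative described as joining complexes III and IV into a supercomplex, rose as well. Whether its product does so in this mouse strain was not tested, and transcript counts cannot show it. Cox6c, a small membrane subunit, gave 250, 276 and 206 CPM in ODN libraries, against 172, 167 and 154 CPM in control libraries, a log2 fold change of 0.57 ± 0.11 (SE, adjusted p = 0.00209). Cox5b, the zinc-binding subunit, gave 200, 168 and 152 CPM in ODN libraries, against 127, 118 and 111 CPM in control libraries (log2 fold change 0.54 ± 0.11, adjusted p = 0.00268). Neither gene's groups overlapped. The 3′ end of Cox6c lies on the span, introns included, of Vps13b on the opposite strand. No near-identical copy of that end was found in transcripts of other genes.

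Cox7a2l gave 353, 405 and 350 CPM in ODN libraries, against 282, 272 and 244 CPM in control libraries, a log2 fold change of 0.47 ± 0.09 (SE, adjusted p = 0.00205) and the smallest p in the complex. Cox7b gave 198, 200 and 160 CPM in ODN libraries, against 130, 142 and 125 CPM in control libraries (log2 fold change 0.49 ± 0.10, adjusted p = 0.00226). Cox4i1, a regulatory subunit that binds adenine nucleotides, gave 265, 260 and 224 CPM in ODN libraries, against 222, 150 and 157 CPM in control libraries, so that 1 control library nearly reached the lowest ODN library (log2 fold change 0.50 ± 0.12, adjusted p = 0.00996). Without control replicate 2 or 3 its adjusted p was 0.0685 or 0.0652.

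The remaining risers of complex IV, Cox5a, Cox6b1, Cox7a2, Cox7c and Cox8a, had log2 fold changes between 0.35 and 0.44. Cox6a1 was the exception among the common subunits, at 204, 226 and 191 CPM in ODN libraries, against 248, 163 and 180 CPM in control libraries (log2 fold change 0.07 ± 0.12, adjusted p = 0.772), with control replicate 1 the highest of those 6. Cox6a1 and Cox7c each have a near-identical pseudogene copy of their 3′ end, so their counts are uncertain.

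The muscle, testis and lung isoforms of complex IV held few counts in all 4 groups. Shares below are of counts not divided by length, since a 3′ tag kit is made to read each transcript once. Cox6a1 held 99.3 ± 0.347%, 99.3 ± 0.542%, 99.2 ± 0.352% and 99.5 ± 0.413% of the Cox6a counts in ODN+IM156, ODN, IM156 and control libraries (SD, n = 3 each), and Cox6b1 at least 98.5% of the Cox6b counts on average in every group. The heart and muscle isoform Cox7a1 had 78 counts over all libraries and the largest p in the complex for ODN against control (adjusted p = 0.917). The testis isoform Cox6b2 had 348 counts, at 2.5, 2.66 and 2.39 CPM in ODN libraries, against 2.88, 3.08 and 3.49 CPM in control libraries, without overlap and without a call (adjusted p = 0.621).

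In complex V the c-ring and the central stalk turn, while the peripheral stalk holds the F1 head still. All 4 stalk genes rose, Atp5o (OSCP), Atp5f1 (b), Atp5h (d) and Atp5j (F6), with log2 fold changes of 0.39 to 0.47. The 3′ end of Atp5o lies on the span, introns included, of the opposite-strand gene Gm15976, without a near-identical copy in other transcripts. Of the 5 genes of the head and central stalk 1 rose, Atp5c1 (gamma, the rotor shaft), and of the 3 c-ring genes 1 rose, Atp5g2. Among the 3 accessory membrane subunits that the symbol rule takes in, 2 rose, Atp5j2 (f) and Atp5l (g). Atp5f1 gave 212, 213 and 175 CPM in ODN libraries, against 147, 152 and 153 CPM in control libraries, with no overlap (log2 fold change 0.41 ± 0.09, adjusted p = 0.00533). Atp5c1 gave 154, 150 and 134 CPM in ODN libraries, against 112, 107 and 103 CPM in control libraries (log2 fold change 0.44 ± 0.09, adjusted p = 0.00215).

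The catalytic subunits did not pass the test. Atp5b (beta) gave 290, 282 and 257 CPM in ODN libraries, against 238, 244 and 237 CPM in control libraries, which did not overlap (log2 fold change 0.21 ± 0.08, adjusted p = 0.123). Atp5a1 (alpha) overlapped, at 344, 308 and 265 CPM in ODN libraries, against 282, 257 and 248 CPM in control libraries (adjusted p = 0.139). Atp5d and Atp5e, the delta and epsilon subunits of the central stalk, stood at log2 fold changes of 0.25 and 0.12. Factor B (Atp5s) had the largest p of the prefix group (log2 fold change -0.05 ± 0.25, adjusted p = 0.93). Atp5sl had the lowest fold change of the members at 10 CPM or more, at 89.6, 82.2 and 105 CPM in ODN libraries, against 120, 104 and 104 CPM in control libraries (log2 fold change -0.24 ± 0.11, adjusted p = 0.164).

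The c-ring protein is encoded by 3 genes whose mature products are the same. Atp5g2 gave 196, 174 and 143 CPM in ODN libraries, against 122, 116 and 116 CPM in control libraries, a log2 fold change of 0.53 ± 0.10 (SE, adjusted p = 0.00196), the smallest p in complex V. Its 3′ end has a near-identical pseudogene copy. Atp5g3 stood at 0.25 ± 0.09 without overlap (adjusted p = 0.0758) and Atp5g1 at 0.23 ± 0.16 (adjusted p = 0.403). Of the c-ring counts Atp5g2 held 22.8 ± 1.47%, 24.2 ± 1.98%, 21.1 ± 1.88% and 20.9 ± 1.07% in ODN+IM156, ODN, IM156 and control libraries, and Atp5g3 70.6 ± 0.635%, 70.0 ± 2.18%, 72.5 ± 2.45% and 73.0 ± 0.426% (SD, n = 3 each).

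Somatic cytochrome c, Cycs, shuttles electrons between complexes III and IV. It gave 61.9, 64.2 and 53.5 CPM in ODN libraries, against 46.8, 51.4 and 43.7 CPM in control libraries. The groups did not overlap, but the gene missed the threshold (log2 fold change 0.34 ± 0.11, adjusted p = 0.0668). Without ODN replicate 3 its log2 fold change was 0.41 and its adjusted p 0.0261.

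**Figure D3:**
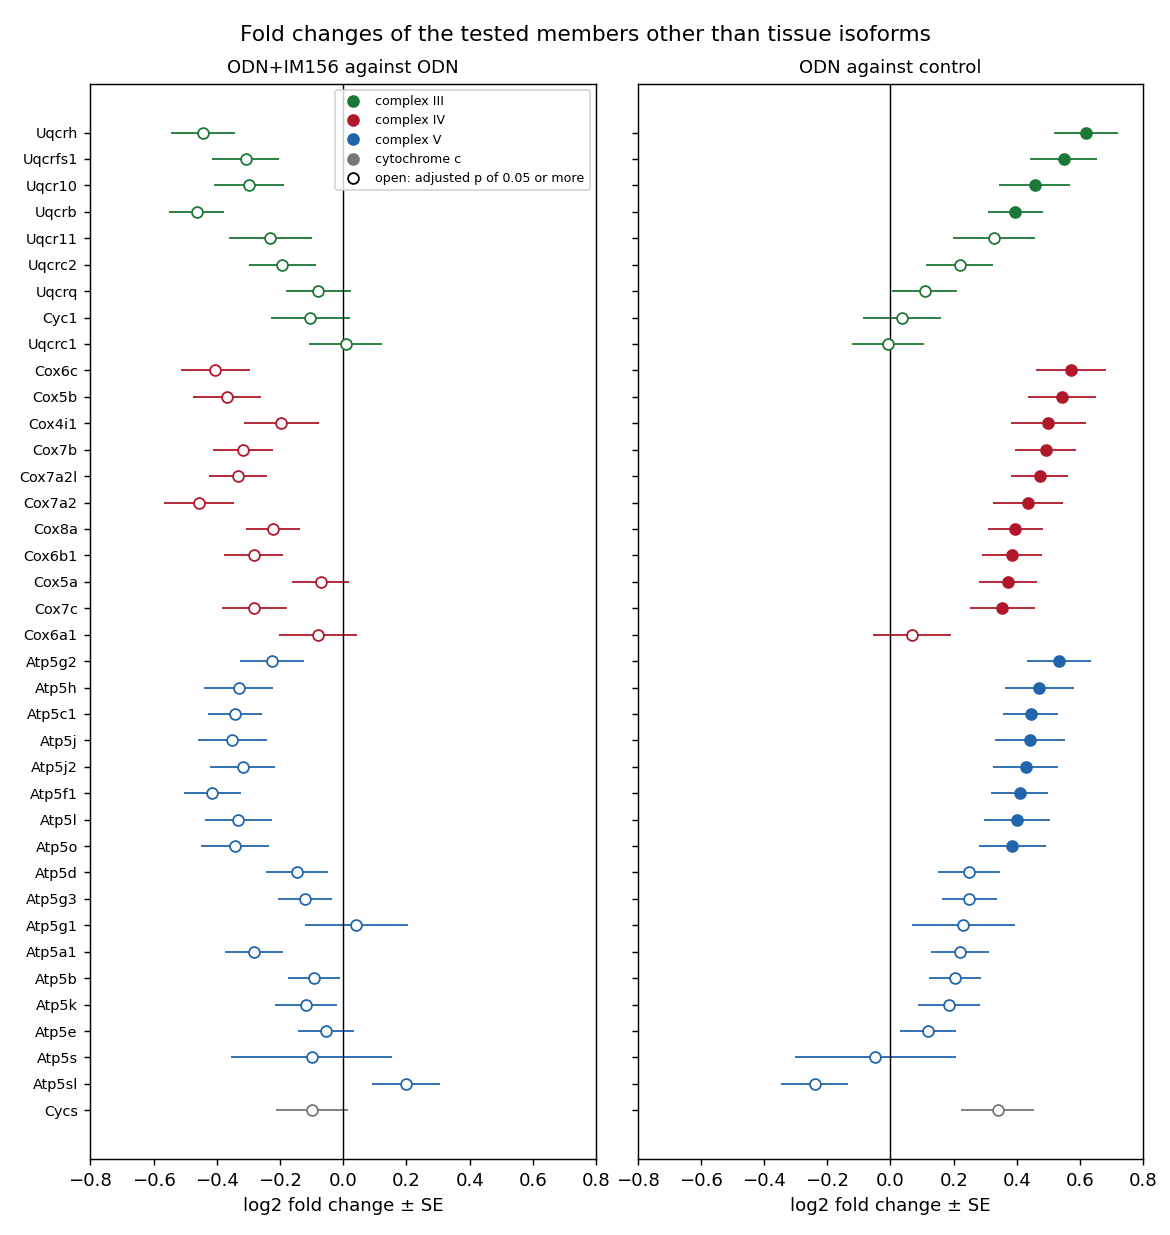
Log2 fold change with its standard error (x axes) of each tested member other than the tissue isoforms, for ODN+IM156 against ODN (left) and ODN against control (right); filled points have an adjusted p below 0.05. On the right 22 points are filled, from 0.35 to 0.62, and on the left none is, with Uqcrb at -0.46 the one of smallest p.

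How far the 22 calls depended on single libraries was followed by leaving out each in turn. All 22 fold changes stayed positive in the 12 such fits. Each of the 22 had every ODN library above every control library, so their signs could hardly turn and say nothing of stability. In every fit 11 members were called, Uqcrh, Uqcrfs1, Uqcrb, Cox5b, Cox6c, Cox7a2l, Cox7b, Cox8a, Atp5g2, Atp5c1 and Atp5f1. Without ODN replicate 2 the 22 log2 fold changes lay between 0.22 and 0.56, and without ODN replicate 3 between 0.41 and 0.68. The count of called members was 12 without control replicate 3, 14 without ODN replicate 2 and 28 without ODN replicate 3, among them Atp5sl, which was lower. The share of all tested genes called in either direction moved along, to 6.72%, 7.88% and 15.5% in those fits, where it was 10.6% with all libraries. A fit of the ODN and control libraries alone, which estimates the spread from 6 libraries, called 11 members and 5.23% of all tested genes.

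Fold changes in ODN against control moved with transcript length over all genes, and 20 of the 41 tested members have annotated transcripts of up to 750 bases. Those 20 had a median log2 fold change of 0.39 and 12 rose, where the other 440 genes of that length had a median of 0.22 and 23.6% rose. The 10 members between 750 and 1500 bases had a median of 0.46 and 9 rose, where the other 1624 genes of that length had a median of 0.11 and 13.3% rose. Of the 9 members between 1500 and 3000 bases 1 rose, and their median was 0.11, where the other genes of that length had a median of 0.02 and 6.93% rose. The 2 members over 3000 bases had a median of 0.29 and neither rose, where the other genes had a median of -0.06 and 4.21% rose. When a library-by-library trend against length was taken out, a setting added after the data were seen, 9 members were called, Uqcrh, Uqcrfs1, Cox5b, Cox6c, Cox7a2l, Cox7b, Atp5g2, Atp5c1 and Atp5f1, along with 9.37% of all tested genes. The part of length in the result was not tested further.

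**Figure D4:**
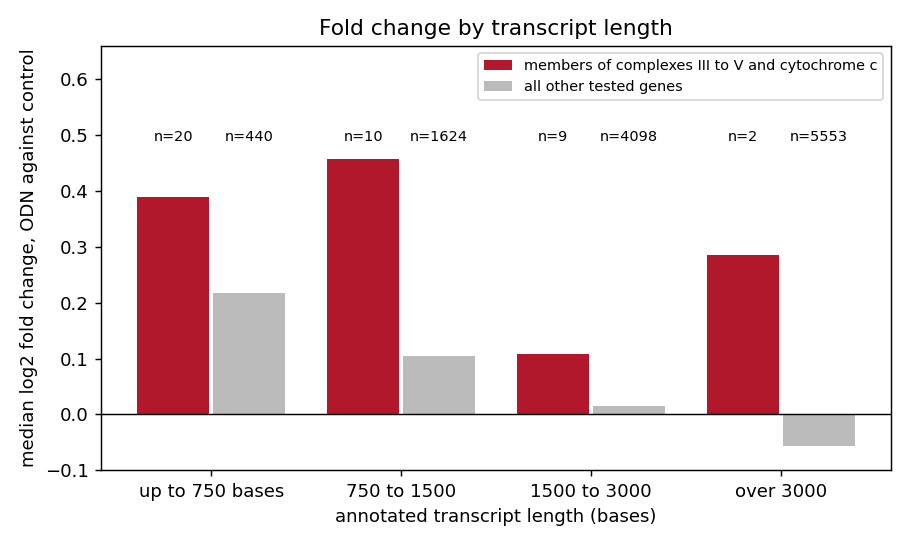
Median log2 fold change, ODN against control (y axis), of members and of all other tested genes in 4 classes of annotated transcript length (x axis), with the number of genes above each bar. Members lie above the other genes in each class, at 0.39 against 0.22 for up to 750 bases and 0.46 against 0.11 between 750 and 1500 bases.

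Other transcripts moved along with the members in ODN against control. Cytosolic ribosomal proteins rose in 79 of 83 tested genes (median log2 fold change 0.54) and mitosis genes in 15 of 15 (median 1.95). The median mitosis gene stood 2.66, 1.52 and 0.89 log2 units above the control mean in ODN replicates 1, 2 and 3, so ODN replicate 3 was lowest there as well as in complexes III, IV and V. Platelet and megakaryocyte genes rose in 8 of 10 and summed to 122.8 to 206.6 CPM in ODN libraries, against 32.67 to 50.74 CPM in control libraries, with none of the list's 12 genes at 0 over all libraries. Erythroid genes fell in 5 of 8 and summed to 106.7 to 255 CPM in ODN libraries, against 679 to 872.3 CPM in control libraries, with Epb42 and Ahsp not used here. B-cell identity genes summed to 9468 to 10660 CPM in ODN libraries, against 10285 to 11574 CPM in control libraries, with 1 of 12 lower. The part of these transcripts in the rise of the members was not tested.

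Among genes that serve the same machinery, complex I subunits rose in 12 of 37 (median log2 fold change 0.24) and complex II subunits in 1 of 4, Sdhd. The complex I list was taken by symbol alone (Ndufa, Ndufb, Ndufc, Ndufs or Ndufv with a number), so it need not match the complex exactly. The complex III assembly list had 0 of 6 called. Of 27 complex IV assembly genes 5 rose, Cmc2 (log2 fold change 0.94), Coa4 (0.78), Cmc1 (0.76), Surf1 (0.46) and Smim20 (0.44). Surf1 is an assembly factor whose loss in humans causes Leigh syndrome. Of 7 genes of complex V assembly and regulation 3 rose. Atpif1, the inhibitor that binds the F1 head when the proton gradient fails, gave 176, 141 and 116 CPM in ODN libraries, against 94.6, 93.6 and 90.5 CPM in control libraries (log2 fold change 0.63 ± 0.11, adjusted p = 0.00106). Usmg5, a small membrane protein of the ATP synthase, and 2010107E04Rik stood at 0.62 and 0.63. Neither symbol has the Atp5 prefix, so both lie outside the members and the complex V counts.

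Of 13 regulators of respiratory genes none rose and 1 fell. Nrf1, nuclear respiratory factor 1, which binds promoters of many respiratory genes, gave 42.3, 40.5 and 53.7 CPM in ODN libraries, against 65.8, 59.0 and 66.2 CPM in control libraries (log2 fold change -0.49 ± 0.11, adjusted p = 0.00792). The coactivator Ppargc1b stood at -0.66 ± 0.21 (adjusted p = 0.0506). Gabpa, the DNA-binding subunit of the ETS factor GABP, stood at 0.05 and Yy1 at 0.03.

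Because many members moved together, their promoters were searched for binding letters of such factors. RefSeq windows of 300 bases (250 before and 50 after the start, GRCm38.p6) were at hand for 35 of the 45 members and 9485 tested genes, and both strands were read. The NRF1 letters GCGCATGCG lay in 7 of 35 members (20%) and in 3.88% of tested genes. Among members with a window, they lay in 2 of 19 that rose and in 5 of 14 that were tested and not called. A form longer by 1 base, in which the matches on both strands overlap, was searched first and lay in 4 of 35 members (11.4%) and 2.18% of tested genes, in 1 of the 19 and 3 of the 14. The ETS letters CCGGAAG lay in 25.7% of members and 19.5% of tested genes, in 5 of the 19 and 4 of the 14. The E-box CACGTG lay in 14.3% of members and 10.4% of tested genes, the YY1 letters AAGATGGC in 8.57% and 5.06%, the CREB letters TGACGTCA in 5.71% and 3.41%, and the estrogen-related receptor letters TCAAGGTCA in 2.86% and 0.295%. Matches to the NRF1 letters on both strands can overlap, and those of different factors printed below do not. A match is a stretch of letters and not a measured binding site.

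The 200 bases before the RefSeq start are shown for Uqcrh, the member with the largest called rise (chr4:116075071-116075270), for the called ATP synthase member Atp5l (chr9:44920743-44920942) and for Cox6a1 (chr5:115348959-115349158), the common complex IV subunit that was not called and whose window holds both NRF1 and ETS letters. All 3 genes lie on the minus strand of GRCm38.p6 and are written 5′ to 3′ along the gene. Capitals mark CTTCCGG, the ETS letters read on the other strand, CACGTG, the E-box, and the NRF1 letters, matched on both strands. The Atp5l window also holds 1 match to the NRF1 letters and 2 to the ETS letters outside the stretch printed.
Uqcrh: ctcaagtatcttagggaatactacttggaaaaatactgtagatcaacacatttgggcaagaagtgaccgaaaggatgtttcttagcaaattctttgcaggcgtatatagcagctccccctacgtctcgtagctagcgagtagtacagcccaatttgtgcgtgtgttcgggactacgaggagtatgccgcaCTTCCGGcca
Atp5l: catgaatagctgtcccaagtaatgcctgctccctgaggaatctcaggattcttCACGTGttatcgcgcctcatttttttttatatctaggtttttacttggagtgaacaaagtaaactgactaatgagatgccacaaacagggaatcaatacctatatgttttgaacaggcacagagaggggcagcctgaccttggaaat
Cox6a1: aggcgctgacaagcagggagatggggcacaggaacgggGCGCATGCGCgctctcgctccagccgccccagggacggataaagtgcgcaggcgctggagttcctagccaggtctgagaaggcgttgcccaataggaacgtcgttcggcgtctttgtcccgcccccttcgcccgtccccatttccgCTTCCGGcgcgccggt

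The second comparison, IM156 against control, asks what IM156 did to B cells of mice without ODN. No member was called (0% of all tested genes were called by edgeR's test), no member had an unadjusted p below 0.05, where 439 genes (3.7%) did, and DESeq2 called no member either. The median log2 fold change was 0.08 over the 41 members and 0.00023 over all genes. The members of smallest p were Atp5h, Uqcrfs1 and Cox6b2. Atp5h gave 183, 212 and 234 CPM in IM156 libraries, against 184, 189 and 165 CPM in control libraries, with overlap (log2 fold change 0.23 ± 0.11, adjusted p = 0.999). Uqcrfs1 gave 78.3, 70.8 and 77.6 CPM in IM156 libraries, against 72.3, 61.6 and 60.3 CPM in control libraries, also with overlap (log2 fold change 0.22 ± 0.11, adjusted p = 0.999). Cox6b2 gave 2.79, 1.96 and 1.28 CPM in IM156 libraries, below the 2.88, 3.08 and 3.49 CPM of control libraries (log2 fold change -0.65 ± 0.36, adjusted p = 0.999).

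The third comparison, ODN+IM156 against ODN, asks whether IM156 changed the ODN response, and it shares its ODN libraries with the first. No member was called by edgeR's test at an adjusted p below 0.05, where 0.0675% of all tested genes were, but 21 of 41 members were lower at an unadjusted p below 0.05, where 9.44% of all tested genes were. DESeq2 called 8 members lower, where 2.08% of the genes with a DESeq2 adjusted p were called lower. The median log2 fold change was -0.23 for complex III, -0.28 for complex IV and -0.23 for complex V, and -0.0083 over all genes. Those of the 3 complexes were -0.33, -0.38 and -0.33 without ODN replicate 3, and -0.19, -0.21 and -0.21 without ODN replicate 2. With all libraries but without Atp5s (-0.10) and Atp5sl (0.20), the complex V median was that of Atp5a1, -0.28. Without overlap, 18 members were lower, where 10% of tested genes were.

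Uqcrb had the smallest p, with 80.5, 79.3 and 82.9 CPM in ODN+IM156 libraries, against 113, 117 and 105 CPM in ODN libraries. The groups did not overlap, at a log2 fold change of -0.46 ± 0.09 (SE, adjusted p = 0.0547). Atp5f1 gave 146, 153 and 152 CPM in ODN+IM156 libraries, against 212, 213 and 175 CPM in ODN libraries (log2 fold change -0.42 ± 0.09, adjusted p = 0.0622). Uqcrh stood at -0.44 ± 0.10 with the same adjusted p, and its groups did not overlap either. All 4 peripheral stalk genes, 7 of the 10 common complex IV subunits and Cox7a2l had an unadjusted p below 0.05 in the lower direction, as did 2 of the 5 head and central stalk genes. Cox5a gave 116, 111 and 126 CPM in ODN+IM156 libraries, against 118, 137 and 115 CPM in ODN libraries, with overlap (log2 fold change -0.07 ± 0.09, adjusted p = 0.762).

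This count moved with 1 library and with the filter on low counts. Without any filter beyond 1 count, 13 members were called, where 2.56% of all 17399 genes then tested were called lower. Without ODN replicate 2 no member was called, where 0.0165% of all tested genes were called lower. Without ODN replicate 3, which held 1 Xist count and the lowest ODN sums of all 3 complexes, 20 members were called, where 4.36% of all tested genes were called lower in that fit. Cox7a2 then stood at -0.56 ± 0.10 (adjusted p = 0.0036), Atp5f1 at -0.49 ± 0.09 (adjusted p = 0.00326), Uqcrb at -0.50 ± 0.10 (adjusted p = 0.00486) and Uqcrh at -0.50 ± 0.10 (adjusted p = 0.00701). That fit leaves 2 ODN libraries. In the fit with all libraries, mitosis genes had an unadjusted p below 0.05 in the lower direction in 15 of 15 (median log2 fold change -1.09) and cytosolic ribosomal proteins in 72 of 83 (median -0.35), and their part in the members' lower levels was not tested.

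**Figure D5:**
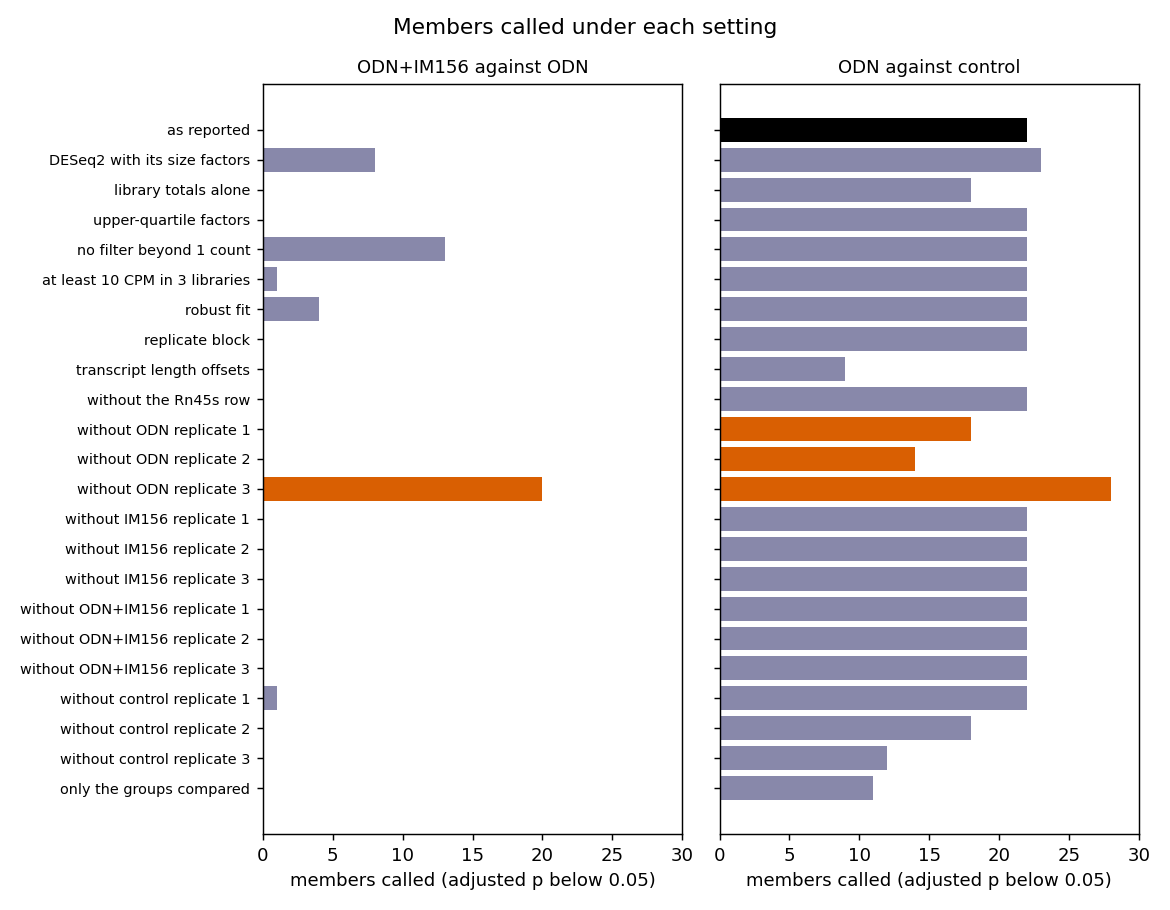
Number of members called at an adjusted p below 0.05 (x axes) under each setting (rows) for ODN+IM156 against ODN (left) and ODN against control (right); orange rows leave out an ODN library. On the left the count as reported is 0 and without ODN replicate 3 it is 20; on the right 22 and 28.

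The interaction subtracts IM156 against control from ODN+IM156 against ODN, and so tests whether IM156 acted alike in the presence and absence of ODN. No member was called by edgeR's test, nor was any of the genes tested (0%), and 20 members were lower at an unadjusted p below 0.05, where 6.86% of all tested genes were. DESeq2 called 8 members, all lower, where 1.1% of the genes with a DESeq2 adjusted p were called lower. The members of smallest p were Uqcrb at -0.55 ± 0.12, Uqcrh at -0.62 ± 0.14 and Cox7a2l at -0.49 ± 0.13, each with an adjusted p of 0.154. Cox7a2l gave 267, 312 and 300 CPM in ODN+IM156, 353, 405 and 350 CPM in ODN, 289, 290 and 311 CPM in IM156 and 282, 272 and 244 CPM in control libraries. The 3 ODN libraries were the highest of the 12. Without ODN replicate 3, 14 members were called, all lower, where 1.34% of all tested genes were called lower, and Uqcrh stood at -0.68 ± 0.14 (adjusted p = 0.0232). Without ODN replicate 2 no member was called, and 0% of all tested genes were.

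The fourth comparison set ODN+IM156 against control, and no member was called, where 1.59% of all tested genes were. At an unadjusted p below 0.05, 5 members were higher, where 7.46% of all tested genes were, and the median log2 fold change was 0.10. Cox5a gave 116, 111 and 126 CPM in ODN+IM156 libraries, against 95.5, 90.6 and 100 CPM in control libraries, without overlap (log2 fold change 0.30 ± 0.09, adjusted p = 0.124). Atp5g2 gave 140, 156 and 143 CPM in ODN+IM156 libraries, against 122, 116 and 116 CPM in control libraries, also without overlap (log2 fold change 0.31 ± 0.10, adjusted p = 0.17). Cox4i1 gave 203, 231 and 219 CPM in ODN+IM156 libraries, against 222, 150 and 157 CPM in control libraries (log2 fold change 0.30 ± 0.12, adjusted p = 0.271). Without control replicate 1, the one control library as high as those, its adjusted p was 0.00962.

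The fifth comparison, ODN+IM156 against IM156, asks for the ODN response under IM156. No member was called, where 2.47% of all tested genes were, and the median log2 fold change was 0.0019. Again Cox5a and Atp5g2 had the smallest p, together with Cox6b2. Cox5a gave 116, 111 and 126 CPM in ODN+IM156 libraries, against 105, 99.1 and 95.4 CPM in IM156 libraries (log2 fold change 0.24 ± 0.09, adjusted p = 0.211). Atp5g2 gave 140, 156 and 143 CPM in ODN+IM156 libraries, against 114, 121 and 131 CPM in IM156 libraries (log2 fold change 0.26 ± 0.10, adjusted p = 0.225). In neither gene did the groups overlap. Cox6b2 gave 3.87, 2.64 and 3.46 CPM in ODN+IM156 libraries, against 2.79, 1.96 and 1.28 CPM in IM156 libraries (log2 fold change 0.73 ± 0.36, adjusted p = 0.371).

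Averaged over both IM156 states, 12 of the 41 tested members rose with ODN, where 8.09% of all tested genes rose. All 12 were among the 22 of the first comparison, which shares libraries with this one. They were 2 of complex III (Uqcrh and Uqcrfs1), 8 of complex IV and 2 of complex V (Atp5g2 and Atp5c1). Atp5g2 led with a log2 fold change of 0.40 ± 0.07 (SE, adjusted p = 0.000916), followed by Cox4i1 at 0.35 ± 0.08 (adjusted p = 0.00932), Uqcrh at 0.31 ± 0.07 (adjusted p = 0.00686), Cox6c at 0.31 ± 0.08 (adjusted p = 0.0135) and Cox5a at 0.30 ± 0.06 (adjusted p = 0.00326). Uqcrfs1, Cox5b and Cox7b stood at 0.28 ± 0.08, 0.27 ± 0.08 and 0.25 ± 0.07, and each lost its call when libraries were scaled by their totals alone (adjusted p = 0.0536, 0.0703 and 0.0769). The count was 5 without IM156 replicate 2, 6 without ODN+IM156 replicate 3, 23 without ODN replicate 3 and 10 without ODN replicate 2. Of all tested genes 8.52%, 8.8%, 15.5% and 11.4% were called in either direction in those 4 fits. In ODN+IM156 against IM156, which enters this average, no member was called. The log2 fold changes there were 0.26, 0.237, 0.197 and 0.0397 for Atp5g2, Cox5a, Cox4i1 and Cox6c. For Uqcrh, Uqcrfs1, Cox5b and Cox7b they were -0.00245, 0.0163, -0.0103 and 0.00826. The average therefore does not show a rise in both IM156 states. Averaged over both ODN states, IM156 changed no member by edgeR's test, where 0.0169% of all tested genes were called, and 5 members were lower at an unadjusted p below 0.05, where 4.82% of all tested genes were.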

How the data were processed

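RNA of splenic B cells was measured in 12 libraries made with a QuantSeq 3′ mRNA kit, per the labels' protocols. The authors deposited raw read counts per gene (unit: counts). The submitters' processing notes name the build GRCm38 (mm10) and the tools Bowtie2, bedtools and edgeR; versions, annotation and strand rule are not given in the sources used here. The same deposited table holds the authors' fold changes (a ratio of group means), p-values and log2 normalized values, none of which was used.

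Counts were analysed in R 4.3.3 with edgeR 4.0.16: filterByExpr (11857 genes kept), TMM scaling, and quasi-likelihood fits of all 12 libraries, each group having its own mean (8 residual degrees of freedom). Each two-sided p was adjusted by the Benjamini-Hochberg method within its comparison, across every tested gene. CPM refer to the TMM-scaled library. Levels are given per library or as mean ± SD, fold changes as log2 ± SE. Replicates differed by 5.143 to 22.31 times counting error (chi-square per degree of freedom) in pairs without ODN replicate 2. Pairs with ODN replicate 2 gave 65.09 and 67.84. All these values include the Rn45s row, whose share was 1.46% in that library and 7.98% and 8.42% in ODN replicates 1 and 3. Its share differed within other groups too, at 8% and 4.78% in IM156 replicates 1 and 3. The values therefore do not give the spread of a typical gene. The model was also run on simulated counts, and no result of that run is given or used here.

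The members, the lists and the rule for named members were chosen with earlier results of these data known. The rule names up to 8 called members of largest fold change with at least 10 CPM, the 3 of smallest p where none was called, each complex's members of smallest and largest p in ODN against control, Cyc1 and Cycs. Members named beside these were chosen after their values were seen. Alternatives were DESeq2 1.42.0, other scalings and filters, a robust fit, the replicate number as a block, single libraries left out, only the compared groups and, added after the data were seen, offsets against transcript length. Genes were placed with GENCODE M21, and promoters came from RefSeq; the shorter form of the NRF1 letters was chosen with the result of the longer known. Other cell type lists, T, NK, neutrophil, monocyte, dendritic and plasma cells, had 0 of 5, 2 of 5, 2 of 3, 2 of 10, 1 of 7 and 0 of 6 tested genes higher in ODN than in control, and none lower.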

Additional observations from a re-analysis of the deposited data

How the results depend on the processing

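The 22 members called in ODN against control became 9 with transcript length offsets and 11 in a fit of only the groups compared, and 12 to 28 with 1 library left out. DESeq2 gave 23, library totals alone 18, and each other scaling or filter 22. Of all tested genes 9.37% were called in either direction with length offsets and 5.23% with only the groups compared. The share was 6.33% to 15.5% with 1 library left out. It was 12.4% with DESeq2 (of genes with an adjusted p), 11.9% with library totals alone and 9.34% to 13% with the other scalings and filters. For ODN+IM156 against ODN, edgeR's 0 became 8 with DESeq2, 13 with no filter beyond 1 count, 1 with at least 10 CPM in 3 libraries, 4 with the robust fit, and 0 to 20 with 1 library left out. The shares of all tested genes called lower were 2.08%, 2.56%, 0.0351%, 0.692% and 0.00828% to 4.36% in the same order. The interaction's 0 became 8 with DESeq2, 10 with no filter, and 0 to 14 with 1 library left out. There 1.1%, 0.989% and 0% to 1.34% of all tested genes were called lower. The 12 members of ODN averaged over both IM156 states became 5 with library totals alone, 5 with transcript length offsets, and 5 to 23 with 1 library left out. Called in either direction were 14.2%, 12% and 8.52% to 15.5% of all tested genes. ODN+IM156 against control had 0 to 1 with 1 library left out, the 1 coming without control replicate 1, where 180 of 12082 tested genes were called. ODN+IM156 against IM156 had 1 in the fit of only the groups compared, where 892 of 11492 tested genes were called. The cause of these moves was not tested, except that a fit of fewer libraries has fewer degrees of freedom. IM156 against control stayed at 0 under every alternative run.

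Some uncalled fold changes in ODN against control turned sign. Cyc1 became -0.0301 with library totals alone and -0.0296 with transcript length offsets, and ranged from -0.0513 to 0.142 with 1 library left out. With 1 library left out, Uqcrc1 ranged from -0.102 to 0.0331, Cox6a1 from -0.0492 to 0.27, Cox7a1 from -0.474 to 0.202 and Atp5s from -0.216 to 0.311.

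With the replicate number as a block, 22 members were called in ODN against control, and no other count of called members moved by over 1.5 times. The labels share only numbers between groups: 0 of 18 same-numbered pairs correlated above 0.1, and 2 of 12 libraries correlated best with their own number.

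Depth limits the tissue isoforms, of which Cox4i2, Cox7b2, Cox8b and Cox8c could not be tested. With 3 libraries per group and an ODN group that was the most spread, an uncalled member is not shown to be unchanged.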
